A study of Mus musculus with 14 samples.

Results

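The regions described here are the open chromatin peaks that lie in exons of noncoding transcripts, in a list of peaks merged over blood progenitors of the mouse. They were chosen as the rows of the deposited list whose annotation class begins with "non-coding", and they number 396 of 92842 peaks (0.427%, exact 95% interval 0.386 to 0.471%). The assay was ATAC-seq, which marks open chromatin by letting a transposase cut the DNA it can reach and tag the ends. The cells were sorted by flow cytometry from adult wild-type C57BL/6 mice of 8 to 12 weeks, with no treatment and no genetic change in any group. The 7 groups have 2 libraries each: the multipotent progenitor (MPP), the common myeloid progenitor (CMP), the common lymphoid progenitor (CLP), the granulocyte-monocyte progenitor (GMP), the megakaryocyte-erythroid progenitor (MEP) and the ProB cell, from bone marrow, and the ProT cell, from thymus. Neither the sex of the mice nor any pooling of animals is stated in the labels.

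The list is merged over the 14 libraries and gives 1 score, 0, to every peak. No value per library or cell type was analysed here, so which of the 7 groups had a given peak open is unknown, as is the depth, there is no replicate error, the sorted identities cannot be checked against markers, and no difference between groups of peaks below was tested. Intervals on shares are exact (Clopper-Pearson) 95% intervals and cover counting error over peaks or genes, which are not independent of each other. Every peak is 499 bp wide.

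Noncoding RNAs are transcripts that are not translated. Some, such as Xist and Kcnq1ot1, act on the chromatin from which they are transcribed, some, such as Neat1, build nuclear bodies, and some serve as precursors of microRNAs or small nucleolar RNAs. Others are transcribed alongside or across a coding gene and share its regulatory DNA, so an open region in their exons need not belong to the RNA itself.

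The class name covers a narrower and more mixed set of regions than it says. All 396 transcripts carry RefSeq accessions of the noncoding (NR) type, 362 different ones, and they belong to 359 genes. RefSeq lists 234 of these genes as noncoding RNA genes (261 peaks, 65.9%, 61.0 to 70.6%), 103 as protein-coding (113 peaks, 28.5%, 24.1 to 33.3%) and 19 as pseudogenes (19 peaks, 4.80%, 2.91 to 7.39%), while 3 transcripts had no entry. More than 1 in 4 of the peaks therefore lie in noncoding variants of coding genes. Exons are also a small part of what the list gives to noncoding transcripts: of 3781 peaks assigned to any NR accession, 2434 (64.4%) were in introns, 762 (20.2%) in the promoter window, 396 (10.5%) in exons and 189 (5.00%) at the termination site.

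Where a peak of the class reached the start of its own transcript, the DNA around that start can be shown. Below are 6 windows from RefSeq (assembly GRCm38.p6), each running from 250 bases before to 50 bases after a noncoding gene's start, 5′ to 3′ on the gene's strand, with the bases inside the peak in capitals. Jpx, Airn, Hoxd3os1 and Dnmt3aos are shown because the results below describe them, and 1500011B03Rik and 4933439K11Rik because they hold the highest and the lowest CpG ratio (CpG observed over expected from the C and G content) among the 40 noncoding RNA genes with such a window. The windows lie at chrX:103493308-103493607 (Jpx, plus strand), chr5:114813927-114814226 (1500011B03Rik, minus strand), chr17:12741061-12741360 (Airn, plus strand), chr2:74716081-74716380 (Hoxd3os1, minus strand), chr12:3862195-3862494 (Dnmt3aos, minus strand) and chr1:172550757-172551056 (4933439K11Rik, minus strand).
Jpx: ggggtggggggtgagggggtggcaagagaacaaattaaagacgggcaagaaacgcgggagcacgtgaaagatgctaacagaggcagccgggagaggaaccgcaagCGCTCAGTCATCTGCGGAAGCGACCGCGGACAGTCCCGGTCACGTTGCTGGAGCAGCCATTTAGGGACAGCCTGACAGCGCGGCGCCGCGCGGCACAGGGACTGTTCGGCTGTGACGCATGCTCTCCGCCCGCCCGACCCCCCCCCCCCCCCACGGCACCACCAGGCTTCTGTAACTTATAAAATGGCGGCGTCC
1500011B03Rik: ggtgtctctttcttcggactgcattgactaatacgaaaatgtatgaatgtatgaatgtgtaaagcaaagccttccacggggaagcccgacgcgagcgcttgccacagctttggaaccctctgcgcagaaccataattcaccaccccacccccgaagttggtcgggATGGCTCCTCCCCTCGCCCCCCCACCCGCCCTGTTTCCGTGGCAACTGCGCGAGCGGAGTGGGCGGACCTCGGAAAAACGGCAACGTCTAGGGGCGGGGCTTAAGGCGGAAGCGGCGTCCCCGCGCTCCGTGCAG
Airn: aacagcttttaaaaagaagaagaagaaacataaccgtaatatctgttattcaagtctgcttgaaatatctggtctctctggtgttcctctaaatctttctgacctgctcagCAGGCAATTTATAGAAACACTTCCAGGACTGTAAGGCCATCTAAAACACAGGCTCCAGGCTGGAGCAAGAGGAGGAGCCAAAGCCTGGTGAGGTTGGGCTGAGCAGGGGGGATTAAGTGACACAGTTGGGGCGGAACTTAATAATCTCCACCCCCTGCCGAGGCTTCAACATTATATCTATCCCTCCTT
Hoxd3os1: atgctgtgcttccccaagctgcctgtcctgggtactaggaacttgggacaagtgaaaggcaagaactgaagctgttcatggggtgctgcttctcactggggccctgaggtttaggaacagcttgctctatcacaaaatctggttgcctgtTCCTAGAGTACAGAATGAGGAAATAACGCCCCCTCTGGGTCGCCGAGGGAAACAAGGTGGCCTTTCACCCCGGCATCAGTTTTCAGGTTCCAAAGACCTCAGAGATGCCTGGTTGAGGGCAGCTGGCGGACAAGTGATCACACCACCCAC
Dnmt3aos: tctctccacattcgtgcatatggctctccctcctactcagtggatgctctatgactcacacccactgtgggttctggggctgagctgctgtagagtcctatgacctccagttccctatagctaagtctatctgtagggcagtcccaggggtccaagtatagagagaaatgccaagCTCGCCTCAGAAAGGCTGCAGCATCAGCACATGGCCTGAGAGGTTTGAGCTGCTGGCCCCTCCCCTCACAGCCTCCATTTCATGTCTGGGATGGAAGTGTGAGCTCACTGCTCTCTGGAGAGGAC
4933439K11Rik: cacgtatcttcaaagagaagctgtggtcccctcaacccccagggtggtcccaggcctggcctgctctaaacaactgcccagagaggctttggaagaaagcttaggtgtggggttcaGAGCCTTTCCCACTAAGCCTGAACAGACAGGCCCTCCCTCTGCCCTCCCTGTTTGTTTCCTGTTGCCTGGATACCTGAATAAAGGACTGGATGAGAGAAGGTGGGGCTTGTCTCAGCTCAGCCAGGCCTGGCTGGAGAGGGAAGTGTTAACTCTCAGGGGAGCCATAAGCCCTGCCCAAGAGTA

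The windows of Jpx and 1500011B03Rik had CpG ratios of 0.863 and 0.981 and GC contents of 64.7% and 60.7%. The windows of Airn, Hoxd3os1, Dnmt3aos and 4933439K11Rik had few CpG, with ratios of 0.192, 0.229, 0.0896 and 0.0425. GC content did not order them in the same way, since Dnmt3aos (54.7%) and 4933439K11Rik (56.0%) had more GC than Airn (45.7%). In all, 73 peaks of the class reached a window of their own gene (74 windows, 40 of noncoding RNA genes and 34 of coding genes). In the 40 windows of noncoding RNA genes, between 2 and 195 of the 300 bases lay inside the peak. The upper figure is set by the annotation, since peaks centred closer to the start were put in the promoter class. The median CpG ratio of the 74 windows was 0.668, beside 0.384 over all 32841 windows of the table and 0.753 over the 13713 windows that any peak reached. The median GC content was 56.2%, beside 52.7% and 61.0%. Windows reached by these exon peaks thus sat between all starts and all open starts on both measures. The median CpG ratio was 0.620 in the 40 windows of noncoding RNA genes and 0.740 in the 34 of coding genes. For the 2296 windows of long noncoding RNAs that any peak reached it was 0.521, at a median GC content of 56.3%, beside 56.2% in the 40.

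The same windows were searched on both strands for 6 short motifs, and a match is a match of letters, not a bound site. GGAA, the core of ETS factor sites, was in 71 of 74 windows (95.9%), beside 96.0% of all windows and 95.4% of those that any peak reached. GATA was in 34 (45.9%), beside 57.9% and 43.7%. TGTGGT, the core of Runx sites, was in 9 (12.2%), beside 16.8% and 13.4%. The E-box CANNTG was in 55 (74.3%, 62.8 to 83.8%), beside 72.3% and 63.8%. CCNNNAGGG, a piece of the CTCF motif, was in 19 (25.7%), beside 21.4% and 27.6%, and TGANTCA, the AP-1 motif, was in 4 (5.41%), beside 7.81% and 4.97%. CANNTG and the other motifs may overlap each other. For each of the 6 motifs the share over the windows that any peak reached lay inside the interval of the 74 windows, for the E-box near its lower bound. By gene kind, the E-box was in 33 of 40 windows of noncoding RNA genes (82.5%, 67.2 to 92.7%), an interval above 63.8%. The share over long noncoding RNA windows that any peak reached, 69.9%, lay inside it. In coding genes the E-box was in 22 of 34 windows (64.7%, 46.5 to 80.3%). Inside and outside the peak together, the window of Airn held 4 GATA and 3 GGAA matches and that of Jpx held 0 and 2. That of Hoxd3os1 held 1 and 7, with 1 match of the CTCF piece.

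Peaks of the class lay close to transcription start sites (TSS) compared with the whole list. The choice of regions largely builds this in, since it keeps exons alone. Of the whole list, 42.0% lay in introns and 39.3% between genes, so coding-exon peaks are a closer comparison. They are still not a matched one. The list counts peaks in 5′ and 3′ untranslated regions (1211 and 1011) apart from coding exons. Noncoding exons have no such split, so the parts of the transcript differ. The median distance from the peak centre to the nearest TSS was 2526 bp (quartiles 254.8 and 9216.8 bp), beside 18164 bp over all peaks and 3625 bp over the 2476 peaks in coding exons. Of the 396, 151 (38.1%, 33.3 to 43.1%) lay within 1 kb of a TSS, 153 (38.6%) from 1 to 10 kb, 76 (19.2%) from 10 to 50 kb and 16 (4.04%) farther. Over all peaks 16.2% lay within 1 kb, and over coding-exon peaks 36.2%, which falls inside the interval of the noncoding exons. The lowest distance, 102 bp, comes from the class order, because peaks nearer to a start are called promoter peaks. Medians were 2552 bp in noncoding RNA genes, 3330 bp in coding genes and 1346 bp in pseudogenes.

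**Figure D1:**
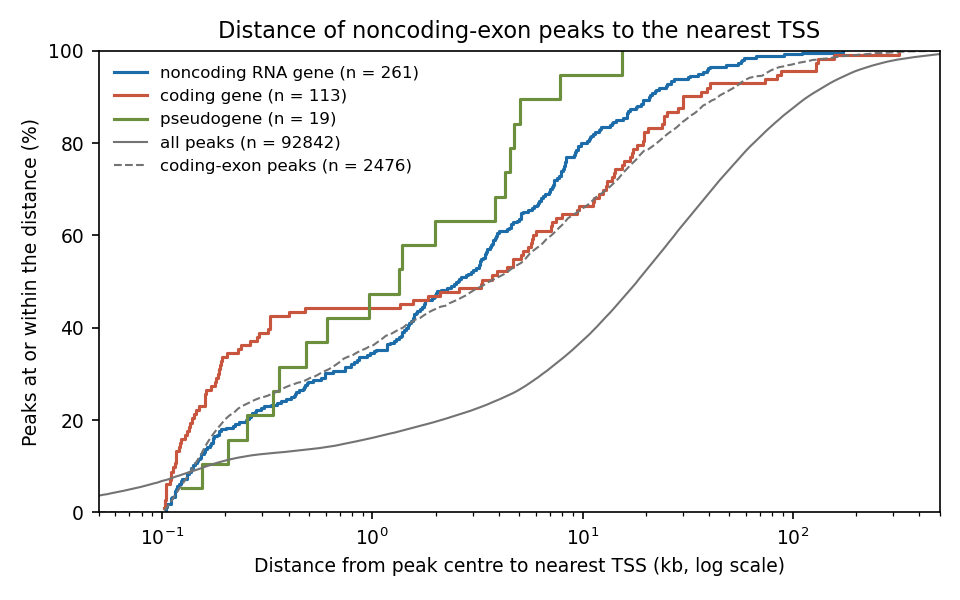
Share of peaks (vertical axis, percent) at or within a given distance from the nearest TSS (horizontal axis, kb, log scale), as cumulative curves. Peaks in noncoding exons are split by the kind of gene (261, 113 and 19 peaks), and grey lines give all 92842 peaks and the 2476 coding-exon peaks; the coding-gene curve climbs to 44.2% below 0.5 kb and is then nearly flat to 1 kb.

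By exon number, 112 (28.3%) were in the first exon of several, 77 (19.4%) in an inner exon, 158 (39.9%) in the last exon and 49 (12.4%) in transcripts of a single exon. First exons held 44.2% (34.9 to 53.9%) of the peaks of coding genes and 21.5% (16.6 to 26.9%) of those of noncoding RNA genes, but with single-exon transcripts counted, exon 1 held 44.2% and 37.5% (31.7 to 43.7%), intervals that overlap. Last exons held 38.9% and 41.4%. The transcripts differ in build: the median peak lay in a transcript of 8 exons for coding genes and of 3 for noncoding RNA genes, and 42 of the 261 peaks of noncoding RNA genes (16.1%) were in single-exon transcripts, against 0 of 113 for coding genes (interval up to 3.21%). Along the whole gene, for the 307 peaks whose gene strand was known, the span was cut into 4 equal stretches, of which the first held 108 peaks (35.2%), the second 33 (10.7%), the third 29 (9.45%) and the last 137 (44.6%). These shares are not per base of exon: the class admits exons alone, exon lengths were not used, and in a transcript of 3 exons all but 1 are the first or the last. Shares were alike in coding genes (35.7%, 10.2%, 8.16% and 45.9%) and noncoding RNA genes (34.9%, 11.0%, 10.0% and 44.0%).

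**Figure D2:**
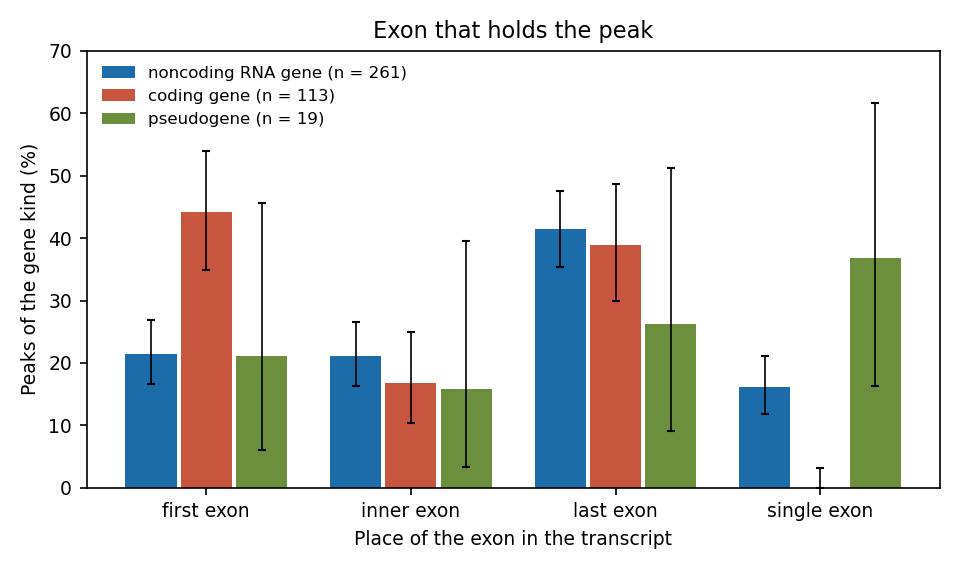
Share of peaks (vertical axis, percent of the peaks of each gene kind) in first, inner, last and single exons. Bars are shares of 261, 113 and 19 peaks and error bars are exact 95% intervals; first exons of several hold 44.2% of the peaks of coding genes and 21.5% of those of noncoding RNA genes, which have a further 16.1% in single exons.

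First-exon peaks had a median distance of 161 bp, inner-exon peaks of 5101 bp and last-exon peaks of 7884 bp. In coding genes the 50 first-exon peaks lay 102 to 479 bp from a TSS (median 147.5 bp), while the 44 last-exon peaks had a median of 13972 bp and 20 of them (45.5%, 30.4 to 61.2%) had the TSS of another gene nearest. Examples of the first kind, chosen after their values were seen, were Nfatc2 at 136 bp, a T cell transcription factor, Nfe2l2 at 139 bp, the regulator of the oxidative stress response, Inpp5d at 172 bp, a lipid phosphatase of blood cells, and Nprl3 at 123 bp, whose introns hold the main enhancers of the alpha-globin genes. Runx2, a transcription factor of bone, had its peak in exon 8 of 8, 128541 bp from its TSS. Cd22, an inhibitory receptor of B cells, had one in exon 7 of 16 at 5.75 kb.

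For 294 peaks (74.2%, 69.6 to 78.5%) the nearest TSS was that of the gene whose exon held the peak. For the other 102 (25.8%) it was another gene's, in 88 cases a coding gene and in 14 a noncoding one, and 49 of the 102 lay upstream of that TSS. A peak in an exon of the nearest gene can lie only downstream, so no such count applies to the 294. The share with the own gene nearest was 74.7% in noncoding RNA genes, 73.5% in coding genes and 84.2% in pseudogenes. By gene span, 102 of the 261 peaks of noncoding RNA genes (39.1%, 33.1 to 45.3%) lay inside a coding gene. A further 57 (21.8%) lay within 10 kb of one, and 35 (13.4%) over 50 kb away. These shares were not computed over all peaks, so they have no background here. Introns of any gene alone held 42.0% of the whole list.

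Most of the noncoding RNA genes have no functional name. Of the 234, 131 (56.0%, 49.4 to 62.4%) carry RIKEN clone names, 57 (24.4%) carry Gm names of predicted genes, and 17 (7.26%) are named as opposite-strand transcripts of a coding gene. Of the 359 genes, 327 had 1 peak of the class, 27 had 2 and 5 had 3. A promoter-class peak was listed as well for 56 of 234 noncoding RNA genes (23.9%, 18.6 to 29.9%) and 37 of 103 coding genes (35.9%, 26.7 to 46.0%). Over all 3529 noncoding RNA genes with an NR accession, microRNAs left out, 468 (13.3%) had one. The 234 were chosen for holding a peak and the 3529 were not, so the 13.3% is not a matched background. The share over all coding genes was not computed, so the 35.9% has no background here. In 142 of 356 genes the peak of the class was the sole peak in the gene's span. The gap to the nearest other peak had a median of 3362 bp (95% interval 2896 to 3948 bp), beside 4004 bp over all peaks. Over coding-exon peaks it was 3794 bp, inside that interval. Of the 396, 109 (27.5%) had another peak within 1 kb, beside 21.0% of all peaks.

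The 5 genes with 3 peaks were of different kinds. Neat1, the RNA scaffold of nuclear paraspeckles, had peaks 1.05, 2.37 and 2.94 kb from its start, all in its first part, with the nearest at chr19:5844182-5844680. Kcnq1ot1, the RNA that silences an imprinted cluster in cis, had peaks at 10.9, 11.5 and 25.1 kb, the nearest at chr7:143285411-143285909. The noncoding gene 5330413P13Rik had peaks 25.0 to 27.2 kb from its start, in its exon 3 of 3, the nearest at chr2:131822397-131822895. The remaining 2 are coding genes. E4f1, a transcription factor, had a peak in exon 1 at 186 bp (chr17:24454957-24455455) and peaks in exons 4 and 6 that lay nearer to Dnase1l2, 4370 and 3695 bp upstream of its TSS. Rab43, a small GTPase, had all 3 in its last exon, 11.2 to 12.9 kb from the TSS of Gp9, a subunit of the platelet glycoprotein receptor, the nearest to Gp9 at chr6:87789120-87789618. Gp9 is 1 of 41 lineage markers listed for B, T, myeloid, erythroid-megakaryocyte and stem cells, and it was the nearest gene for 3 of 396 peaks of the class (0.758%, 0.157 to 2.20%). The other 40 markers were nearest to 0 of them. Over the whole list a marker was nearest to 361 of 92842 peaks (0.389%), a share inside that interval.

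RefSeq lists 3529 noncoding RNA genes, microRNAs left out, with an NR accession, and 233 of them (6.60%, 5.81 to 7.47%) had a peak of the class, the background for the lists that follow. This background is not matched for exon or gene length. Some listed genes are long, such as Kcnq1ot1 (83.4 kb) and Xist (22.9 kb), beside a median of 7.92 kb over noncoding RNA genes with a peak of the class. Whether length accounts for the shares was not tested. The 4 RNAs of X inactivation each had 1 peak of the class. Xist, which coats the inactive X chromosome, had its peak in exon 1 of 8, 5.51 kb from the start (chrX:103477473-103477971). Tsix, its antisense partner, had one in exon 2 of 4 at 16.3 kb (chrX:103447533-103448031), outside the body of Xist. Jpx, an activator of Xist, had one in exon 1 of 3 at 104 bp (chrX:103493413-103493911), at the CpG-rich start printed above. Ftx had one in exon 11 of 11 (chrX:103563551-103564049), 9.20 kb from the TSS listed for the microRNA Mir421, which lies within Ftx. No promoter-class peak was listed for any of the 4 genes. The stretch around the 4 genes held 11 peaks of the list, of which 4 were in noncoding exons, 4 in introns and 3 between genes. Xist and Jpx each had 1 peak in their span, while Ftx had 4 and Tsix, whose span covers Xist, had 3, that of Xist among them. Over the chromosomes, the class took 15 of the 1930 peaks of the X (0.777%, 0.436 to 1.28%), a share above the 0.288 to 0.687% of the autosomes, with an interval that reaches into their range, and 0 of 14 on the Y.

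**Figure D3:**
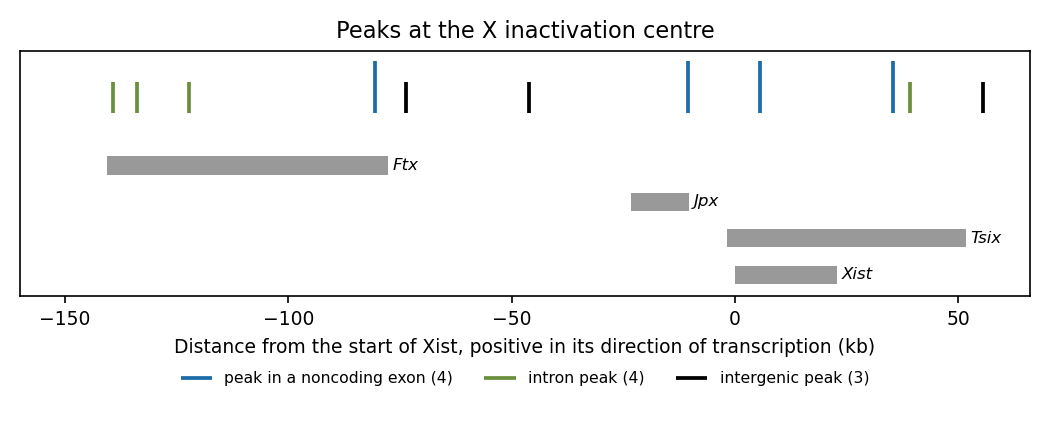
Peaks (vertical lines) and RefSeq gene spans (grey bars) at the X inactivation centre, by distance in kb from the start of Xist, positive in its direction of transcription. The 4 long blue lines are the peaks in noncoding exons, 1 each for Ftx, Jpx, Xist and Tsix; shorter lines are 4 intron and 3 intergenic peaks.

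Of the 10 imprinted noncoding RNAs matched, 3 had peaks of the class, 6 in all, and each of these peaks lay inside the span of a coding gene. The Kcnq1ot1 peaks lay within Kcnq1, a potassium channel gene, and Kcnq1ot1 also had 1 promoter-class peak. Airn, which silences Igf2r on the paternal chromosome, had its peak in exon 1 of 3 at 110 bp (chr17:12741172-12741670), inside Igf2r. The list also gave 6 intron peaks to Airn. Peg13 had 2 peaks, at 0.141 and 1.02 kb (the nearer at chr15:72809934-72810432), inside Trappc9. H19 and Meg3, imprinted RNAs of other clusters, had 0 peaks in exons, and Meg3 had 1 in an intron.

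Of the 7 RNAs of nuclear bodies and nuclear architecture matched, Neat1, Malat1 and Miat had 7 peaks of the class. Malat1, an abundant RNA of nuclear speckles, had peaks at 1.58 and 3.85 kb in its single exon, the nearer at chr19:5800845-5801343, and 2 promoter-class peaks. Miat had 2 in exon 7 of 7; one was 9.28 kb from its own TSS (chr5:112219420-112219918), and the other lay 7.89 kb from the TSS of 1700028D13Rik. Neat1 and Malat1 are neighbours on chromosome 19, and the stretch around them held 21 peaks: 5 in noncoding exons, 3 promoter-class, 3 at termination sites and 10 between genes. In Neat1 the 3 exon peaks lay within 2.94 kb of the start, and no peak of the class lay in the rest of its 20.8 kb. Its span held 4 peaks in all, with a termination-site peak at 3.65 kb, and peaks in a termination window are kept out of the class. Firre had 1 promoter-class peak and 2 intron peaks, and Tug1 had none of either.

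**Figure D4:**
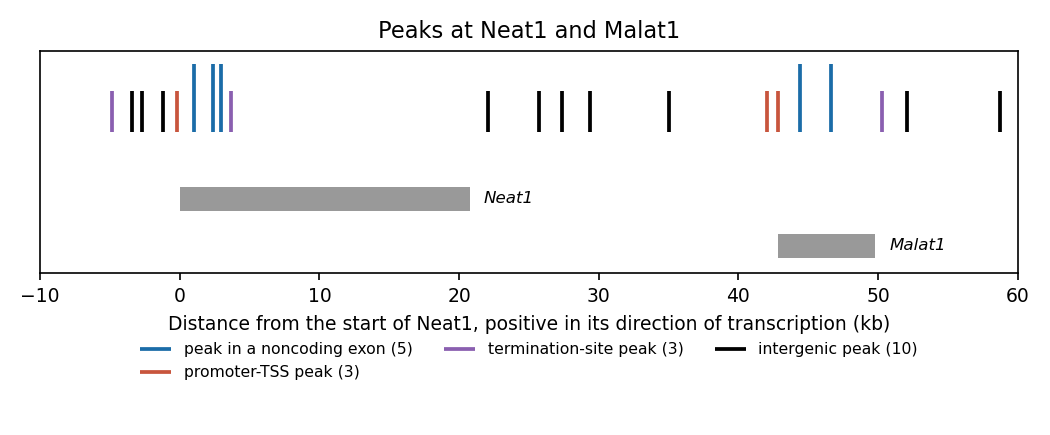
Peaks (vertical lines) and RefSeq gene spans (grey bars) at Neat1 and Malat1, by distance in kb from the start of Neat1, positive in its direction of transcription. The 5 long blue lines are peaks in noncoding exons, 3 in the first 2.94 kb of Neat1 and 2 in Malat1; shorter lines are promoter-class, termination-site and intergenic peaks.

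Genes that host or encode small RNAs held few peaks of the class, and so few genes are listed that their counts cannot be set apart from the 6.60% above. Of the 20 hosts of small nucleolar RNAs, 0 had an exon peak, and 12 had a promoter-class peak, which 468 of the 3529 noncoding RNA genes (13.3%) had. Of the 13 genes matched in the list of microRNA hosts, 1 had exon peaks: Mirt1, with 2 in exon 10 of 10, the nearer to its TSS at 21.3 kb (chr19:53443216-53443714). Mirt1 entered the list by its symbol. No hairpin of the RefSeq table lies in its span, so it is not shown to be a host. The list also counts Mir181a-2, which is itself a microRNA. Of the 38 microRNAs of blood cells, 0 had an exon peak and 5 had a promoter-class peak, beside 0 and 101 (8.22%) of all 1228 microRNA genes with an NR accession. A microRNA gene is shorter than a peak, so a peak centred on it falls in the promoter window. None of the 396 transcripts is a microRNA, and 0 of the 1005 microRNA hairpins in the RefSeq table lay within 2 kb of a peak of the class. That 0 has no background here, since hairpins near the rest of the list were not counted. Of the 12 hairpins that lay in the span of a gene with such a peak, Mir421, Mir374b and Mir374c in Ftx were 8.87 to 9.04 kb away, and Mir23b, Mir27b, Mir24-1 and Mir3074-1 in the coding gene Aopep were 23.7 to 24.4 kb away.

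Of 26 genes matched in the list of long noncoding RNAs studied in blood and immunity, 2 had a peak of the class. RefSeq gives Rmrp and D13Ertd608e, both counted in the list, a type other than long noncoding RNA. Trp53cor1, a p53-induced RNA next to Cdkn1a, had one in exon 2 of 2, 20.9 kb from its TSS (chr17:29057948-29058446). BC037032 had one in exon 1 of 2 that lay 161 bp from the TSS of the coding gene Oxct1 (chr15:4026340-4026838). Morrbid, which sets the lifespan of myeloid cells, and Pvt1, the neighbour of Myc, had 0 peaks in exons but 18 and 22 in introns, and each had 2 promoter-class peaks. Among the 10 structural RNAs matched, Terc, the RNA template of telomerase, had 1 peak, centred 201 bp from its TSS (chr3:96414383-96414881), which covers the whole gene of 0.397 kb.

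Some named RNAs outside these lists, picked after their values were seen, lay at loci of blood genes. How many of the noncoding RNA genes lie at such loci was not counted, so these are examples alone. Bloodlinc, an RNA of erythroid cells, had a peak in exon 3 of 3 (chr11:102375404-102375902), 10.4 kb from Slc4a1, the red cell anion exchanger. G6bos had one within Mpig6b, an inhibitory receptor of megakaryocytes and platelets. E130112N10Rik had one 1759 bp upstream of the TSS of Cd27, a receptor of lymphocytes, and Gm14023 one 3.75 kb downstream of the TSS of Il1a, the cytokine interleukin 1 alpha. R74862 had 2: in exon 1, within Cd81, and in exon 5 of 5, 2.46 kb from the span of Tspan32, both tetraspanin genes. Among opposite-strand RNAs, Dnmt3aos (174 bp, within the DNA methyltransferase gene Dnmt3a) and Hoxd3os1 (149 bp, within the homeobox gene Hoxd3) had peaks at their own starts, whereas the peak in Zeb2os lay 125 bp from the TSS of Zeb2, a zinc finger repressor.

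At the ends of the distance range the host genes were mostly coding. The 5 peaks farthest from any TSS lay in Slc8a1 (318546 bp), a sodium-calcium exchanger, the noncoding gene Gm12610 (173058 bp), Adarb2 (157384 bp), an RNA editing enzyme homologue, Lrrc28 (131396 bp) and St18 (129226 bp), a zinc finger gene. In Slc8a1, Lrrc28 and St18 the exon was the last, while in Gm12610 it was exon 9 of 10 and in Adarb2 exon 7 of 11. The peaks of Slc8a1 and Gm12610 had another gene's TSS nearest, upstream of which they lay, and that of Adarb2 lay nearest to Wdr37. The 8 peaks nearest to a TSS, at 102 to 104 bp, were all in first exons: those of Ccdc77, Sh3kbp1, Zfp410, Hdac10 and Tle5, which are coding genes, and of Gm16712, Jpx and Rbm3os. The peak in Ccdc77 lay 102 bp from the start of its neighbour Kdm5a, a histone demethylase gene, and the other 7 from the start of their own gene.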

How the data were processed

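ATAC-seq was done on 14 libraries of 7 cell types. The deposited file is a merged list of 92842 peaks, annotated against mm10 with annotatePeaks per the file header; HOMER 4.10.2 is named, with mm10, by the submitters' processing notes. The aligner is not given in the sources used here, nor are the peak caller and the merging step. Positions and signed distances in bp are used as deposited by the authors, and the deposited peak score, 0 in every row, was not used. Depth is unknown.

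Peaks of the class were read from the annotation column. Of their 396 accessions, 386 were matched to a RefSeq gene table (GRCm38.p6) and 7 through the list's own pairing of accession and gene, and 3 were unmatched. Coding neighbours were taken from RefSeq gene spans; strand was known where the promoter table holds the gene. Shares, medians and exact intervals were computed with Python 3.11.15, pandas 2.3.3, numpy 2.4.6 and SciPy 1.17.1, and figures drawn with matplotlib 3.10.9. The parsing and gap steps were tested on simulated data. The regions and gene lists were chosen with earlier results of these data known. Genes were named by rule: those with 3 or more peaks of the class, those in the 8 gene lists, the 5 farthest from and the 5 nearest to a TSS (ties kept), and microRNA transcripts; the nearest peak is the region given. Other genes, such as those at blood gene loci, the promoter examples and the windows with the extreme CpG ratios, were chosen after their values were seen. The alternatives tried are in the closing section.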

Additional observations from a re-analysis of the deposited data

How the results depend on the processing

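Of 31 alternative values, 25 stayed inside the 95% interval of the reported value and 6 moved outside it. These counts do not measure robustness, since the direction of some moves was fixed in advance. That holds for the 2 kb window, the gap to the class alone, the match by accession alone and the removal of transcripts of 1 exon. Taking every peak whose nearest gene is of type ncRNA in place of the annotation class gave 12.7% of the list instead of 0.427%, a different set of peaks. Without transcripts of 1 exon, last exons held 45.5% of peaks instead of 39.9%. A window of 2 kb held 48.0% instead of the 38.1% within 1 kb. Matching the nearest TSS by accession alone gave 58.1% with the own gene nearest instead of 74.2%, since another accession of the same gene then counts as another gene. The gap to another peak of the class alone had a median of 1111211 bp instead of 3362 bp to any peak. For peaks whose central 200 bp reach the window, the E-box share was 84.8% of 33 windows instead of 74.3% of 74. Counting each gene by its peak nearest to a TSS lowered the median distance from 2526 to 1759 bp, and leaving out the 5 genes with the most peaks lowered it to 2104 bp.

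The merged list limits what can be said: depth, replicate error and cell type are unknown, and comparisons between the 7 cell types and leave-one-out values were not run. Repeat and CpG island content could not be given, because the detailed annotation of these peaks repeats the exon. Sequence covers promoter windows of part of the genes, not whole peaks. No paired analysis was possible because the list carries no values per library, so replicate numbers pair nothing.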
